A study of Homo sapiens with 4 samples.

Results

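The genes described here are those of vascular endothelial growth factor (VEGF) and angiopoietin signalling: the VEGF ligands VEGFA, VEGFB, VEGFC and PGF, the VEGF receptors FLT1 and KDR, the angiopoietins ANGPT1 and ANGPT2, their receptor TEK, and the angiogenesis inhibitor THBS1. They were taken by symbol from the Ensembl identifiers of a gene count matrix, which gave 10 of 64252 gene rows, and 8 of the 10 passed the filter on low counts that left 19093 genes to test. The RNA came from the neuroblastoma line SK-N-BE(2), an established human cell line with amplified MYCN. A scramble short hairpin RNA (shRNA, a hairpin that is cut into a small RNA which silences a matching transcript) was given to the cells of the 2 control libraries, and an shRNA against IRF2BP2 to those of the other 2. The labels name the hairpin by its target only and give no time after delivery. They do not say whether replicates are separate cultures. The p-values therefore measure the spread between these 4 libraries alone, and that spread may be technical.

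VEGFs are secreted dimers that bind receptor tyrosine kinases on endothelial cells. VEGFA acts mainly through KDR, PGF and VEGFB bind FLT1, and VEGFC acts mainly on FLT4 of lymphatic endothelium. ANGPT1, usually made by cells that surround vessels, activates the endothelial receptor TEK (Tie2) and stabilises vessels, while ANGPT2 is a context-dependent antagonist of it. THBS1 is a large matrix glycoprotein that restrains endothelial growth through CD36 and CD47. IRF2BP2 is a transcriptional coregulator that was described in muscle as an activator of VEGFA and as a partner of VGLL4, a cofactor of TEAD transcription factors.

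The target of the hairpin was checked in every library. IRF2BP2 (ENSG00000168264) had 8425 and 7320 counts with scramble shRNA and 2865 and 2803 with IRF2BP2 shRNA. Its log2 fold change, IRF2BP2 shRNA over scramble, was -1.44 (standard error, SE, 0.039; edgeR quasi-likelihood test with Benjamini-Hochberg adjustment, adjusted p = 5.87e-10). Total counts lay between 30847699 and 34684651 per library, and 8016 of the 19093 genes tested, 42.0%, passed an adjusted p of 0.05, 20.6% of all genes tested being higher and 21.4% lower. PHOX2A and HAND2, defining markers of the labelled cell type, were abundant in all 4 libraries. PHOX2A, a regulator of the sympathetic neuron lineage, was at 603 and 643 CPM (counts relative to the scaled library total) with scramble shRNA and at 358 and 362 CPM with IRF2BP2 shRNA.

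After IRF2BP2 shRNA, VEGFA, VEGFC, PGF, FLT1 and THBS1 were higher, and VEGFB, ANGPT1 and ANGPT2 were lower. Among those of them with counts in every library, the largest change was the fall of ANGPT1. That is 5 genes higher and 3 lower of 8 tested, beside 42.0% of all genes tested. FLT1 passed the filter only through the group in which it was high, so it had to differ, and the count over the 8 is a description. KDR and TEK were at 14 counts or fewer in every library and were not tested. The median log2 fold change of the tested genes was 0.57 with FLT1 and 0.44 over the 7 without it, beside -0.01 for all genes tested.

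**Figure D1:**
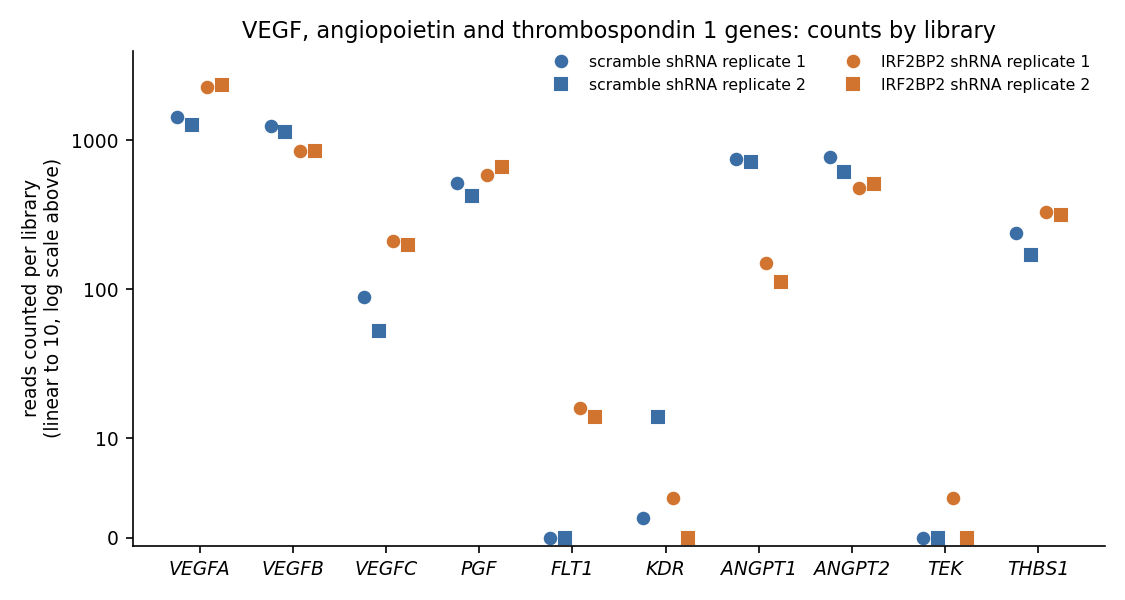
Reads counted per library (vertical axis, linear up to 10 and logarithmic above) for each of the 10 genes (horizontal axis), with circles for replicate 1 and squares for replicate 2, scramble shRNA in blue and IRF2BP2 shRNA in orange. ANGPT1 falls from 746 and 714 counts to 151 and 112, VEGFA and VEGFC lie higher in the orange libraries, and FLT1, KDR and TEK stay at or below 16 counts.

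VEGFA (ENSG00000112715, chromosome 6) is the main inducer of vessel growth and permeability. It was counted 1439 and 1268 times with scramble shRNA and 2292 and 2345 times with IRF2BP2 shRNA. In scaled units these are 41.4 and 41.3 CPM, and 71.6 and 73.2 CPM. The IRF2BP2 shRNA libraries were both above both scramble libraries, and the gap was far wider than the gap within either pair. VEGFA rose 1.75-fold (log2 fold change 0.81, SE 0.057, edgeR adjusted p = 7.25e-07).

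VEGFC (ENSG00000150630, GRCh38 chromosome 4, 176683538 to 176792727, minus strand) is the principal growth factor of lymphatic vessels. It was counted 89 and 53 times with scramble shRNA and 213 and 200 times with IRF2BP2 shRNA, or 2.56 and 1.73 CPM against 6.66 and 6.24 CPM. The scramble libraries differed from each other more than the IRF2BP2 shRNA libraries did, and the groups did not overlap. VEGFC rose 2.996-fold (log2 fold change 1.58, SE 0.23, edgeR adjusted p = 0.000202). This is the largest rise among the 4 VEGF ligands. The counts are low, and without scramble replicate 1 the log2 fold change was 1.91, and without scramble replicate 2 it was 1.33, with the call kept in both.

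PGF (ENSG00000119630, chromosome 14, 74941834 to 74955784, minus strand), placental growth factor, binds FLT1 and not KDR. Its counts were 519 and 424 with scramble shRNA and 582 and 663 with IRF2BP2 shRNA, or 14.9 and 13.8 CPM against 18.2 and 20.7 CPM. The groups did not overlap, but the IRF2BP2 shRNA libraries differed from each other more than the scramble libraries did. PGF rose 1.35-fold (log2 fold change 0.44, SE 0.11, edgeR adjusted p = 0.00684). Without IRF2BP2 shRNA replicate 2 the call was lost, with a log2 fold change of 0.34 and an edgeR adjusted p of 0.0834.

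VEGFB (ENSG00000173511, chromosome 11, 64234538 to 64238793, plus strand) is a FLT1 ligand with a weak direct effect on vessel growth. It was counted 1249 and 1135 times with scramble shRNA and 846 and 850 times with IRF2BP2 shRNA, or 36.0 and 36.9 CPM against 26.4 and 26.5 CPM. The 2 IRF2BP2 shRNA libraries were nearly equal and both lay below both scramble libraries. VEGFB fell 1.38-fold (log2 fold change -0.46, SE 0.074, edgeR adjusted p = 0.00041), against the direction of the other 3 ligands. When a change was required to exceed 1.5-fold (edgeR's glmTreat), VEGFA and VEGFC were still called and VEGFB and PGF were not, beside 8.48% of all genes tested.

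**Figure D2:**
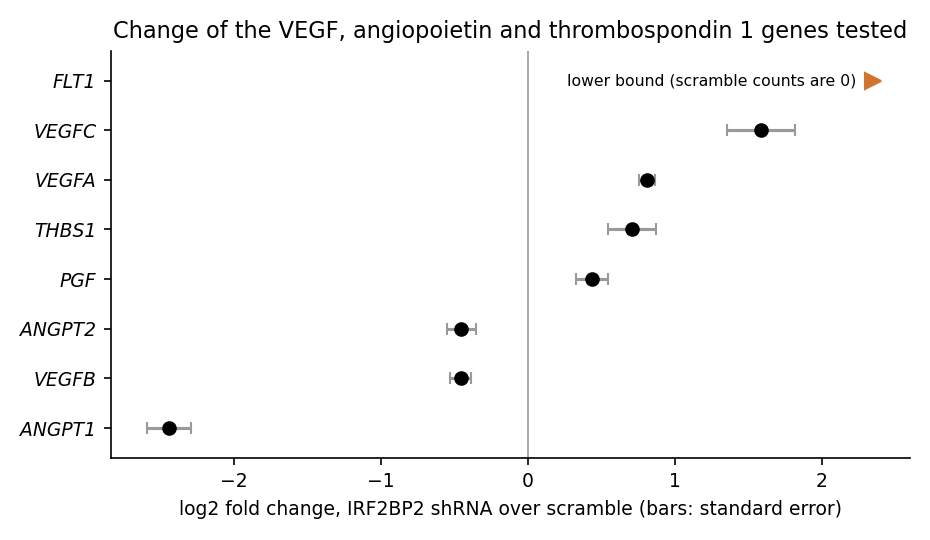
Log2 fold change of IRF2BP2 shRNA over scramble (horizontal axis) for the 8 genes tested, with bars for the standard error, and for FLT1 a triangle at the lower bound of 2.35 set by a floor of 3 counts per scramble library. VEGFC, VEGFA, THBS1 and PGF lie to the right of 0 and ANGPT2, VEGFB and ANGPT1 to the left, with ANGPT1 the farthest at -2.44.

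The RefSeq promoters of VEGFC, PGF and THBS1 are printed because these genes rose together in the comparison. RefSeq (GRCh38.p14) entries were found for 7 of the 10 genes. VEGFA, ANGPT1 and ANGPT2 had no entry in the set used, so no motif was searched at them. Each sequence is the 250 bases before a RefSeq gene start, from 5′ to 3′ on the strand of the gene, in lower case with matches to the searched motifs in capitals. The sequences below are chr4:176792923-176793172 (minus strand) for VEGFC, chr14:74955765-74956014 (minus strand) for the upstream of 2 starts of PGF, and chr15:39580829-39581078 (plus strand) for THBS1.
VEGFC: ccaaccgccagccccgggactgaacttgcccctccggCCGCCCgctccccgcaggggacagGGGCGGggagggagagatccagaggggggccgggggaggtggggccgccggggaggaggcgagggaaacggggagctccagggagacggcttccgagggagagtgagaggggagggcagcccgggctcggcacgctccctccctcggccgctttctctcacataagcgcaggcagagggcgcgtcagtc
PGF: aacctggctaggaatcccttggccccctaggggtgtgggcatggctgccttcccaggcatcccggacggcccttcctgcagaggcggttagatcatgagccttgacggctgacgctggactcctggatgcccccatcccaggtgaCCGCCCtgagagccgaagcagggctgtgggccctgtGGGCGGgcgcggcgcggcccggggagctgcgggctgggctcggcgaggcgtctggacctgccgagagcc
THBS1: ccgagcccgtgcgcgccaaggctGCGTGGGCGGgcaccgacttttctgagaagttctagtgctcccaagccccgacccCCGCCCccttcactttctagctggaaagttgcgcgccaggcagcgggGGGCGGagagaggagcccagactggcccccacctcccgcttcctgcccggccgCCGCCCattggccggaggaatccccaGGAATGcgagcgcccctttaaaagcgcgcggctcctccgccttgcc

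Motifs were searched on both strands, from 250 bases before to 50 bases after the start. ACGTG is the core that hypoxia-inducible factors recognise in promoters and enhancers. The E-box, which MYC family proteins recognise, is the palindrome CACGTG and therefore contains that hypoxia core. TEAD factors recognise sequences holding the letters GGAATG, while the GC box recognised by SP1 family zinc finger proteins was searched as GGGCGG. The EGR1 motif, likewise recognised by zinc fingers of an immediate early protein, was searched as GCGTGGGCG. Heterodimers of FOS and JUN family proteins recognise the AP-1 motif, here searched as TGANTCA. The GC box was found at 6 of the 7 genes with an entry, the exception being TEK, and in 45.0% of 35116 RefSeq promoters of the same length. VEGFC had 2 GC boxes in the bases printed, PGF 2 and THBS1 4. The promoter of VEGFB, a ligand that fell, had 6 before the start and 3 more after it. The EGR1 motif was found at THBS1 and at none of the other 6, beside 0.795% of all promoters. It starts at position -227 from the THBS1 start and overlaps the GC box at -223. The TEAD motif was likewise found at THBS1, at position -46, beside 14.0% of all promoters. The hypoxia core, the E-box and the AP-1 motif were in none of the 9 windows of the 7 genes, beside 21.4%, 7.26% and 7.71% of all promoters. The GC content of the bases before the start was 74.0% at VEGFC, 70.8% at the upstream start of PGF, 69.6% at THBS1 and 82.8% at VEGFB, beside a median of 58.0% over all promoters. A match describes the letters of this window and was not tested for binding.

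Levels of different genes were compared only as CPM per kb of length. Dividing by the union of all annotated exons, VEGFB was highest with scramble shRNA at 23.6 ± 0.45 (mean ± SD, n = 2, here and below). ANGPT1 followed at 3.14 ± 0.17 and ANGPT2 at 3.12 ± 0.23, which did not differ beyond their spread. VEGFA was next at 2.87 ± 0.0081 and PGF at 2.41 ± 0.14. VEGFC at 0.886 ± 0.24 and THBS1 at 0.674 ± 0.10 overlapped in their spread, and KDR, FLT1 and TEK were at or below 0.0391. In the IRF2BP2 shRNA libraries the order was VEGFB at 17.1, VEGFA at 5.02, PGF at 3.26, VEGFC at 2.67, ANGPT2 at 2.28, THBS1 at 1.10 and ANGPT1 at 0.576 CPM per kb, so that ANGPT1 moved from rank 2 to rank 7. The place of VEGFA depends on the length used. The annotated exons of VEGFA join to 14431 bases and those of VEGFB to 1545. With the median length of the coding transcripts, an alternative chosen after seeing the data, the scramble level was 37.7 ± 0.11 CPM per kb for VEGFA and 37.2 ± 0.71 for VEGFB, which did not differ beyond their spread, and the IRF2BP2 shRNA level was 66.0 ± 1.00 for VEGFA and 27.1 ± 0.065 for VEGFB.

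Within the sum of the VEGF ligands (VEGFA, VEGFB, VEGFC, PGF and VEGFD), the shares shifted toward VEGFA and VEGFC and away from VEGFB and VEGFD. Per kb of union exon length the VEGFA share was 9.29% and 9.21% with scramble shRNA and 17.5% and 17.7% with IRF2BP2 shRNA. The VEGFB share was 75.3% and 77.0%, then 60.3% and 59.7%. The VEGFC share was 3.43% and 2.29%, then 9.69% and 8.97%. None of these shares overlapped between the groups. Per kb of median coding transcript length, the mean VEGFA share was 43.9% and then 61.0%, and the mean VEGFB share 43.4% and then 25.03%, so the direction of these 2 shares did not depend on the length while their size did. The sum of the 5 ligands moved from 30.99 ± 0.11 to 28.6 ± 0.25 CPM per kb with the union exon length and from 85.7 ± 0.12 to 108.1 ± 1.93 with the transcript length, so its direction depends on the length. With 2 libraries against 2, the smallest two-sided p of an exact permutation test is 0.333, so these shares were not tested.

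**Figure D3:**
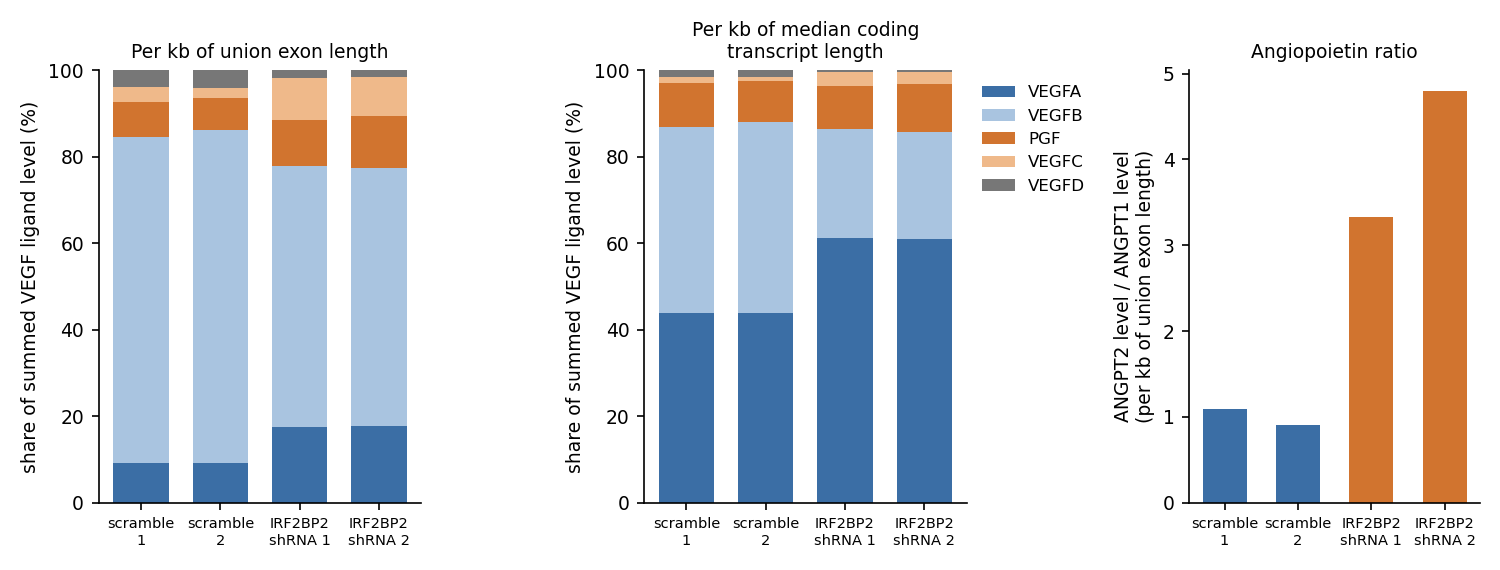
Left and middle, the share of each VEGF ligand (%) in the summed level of 5 VEGF ligands in each library, per kb of union exon length and per kb of median coding transcript length; right, the ratio of the ANGPT2 level to the ANGPT1 level in each library. The VEGFA share is larger in both IRF2BP2 shRNA libraries under either length, and the angiopoietin ratio is 1.09 and 0.909 with scramble shRNA against 3.33 and 4.80.

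The receptor genes were near the limit of detection. FLT1 (ENSG00000102755, chromosome 13, 28300344 to 28495145, minus strand), VEGF receptor 1, had no count in either scramble library and 16 and 14 counts with IRF2BP2 shRNA, or 0.50 and 0.44 CPM. A count of 0 allows a level of up to 0.0865 and 0.0973 CPM with scramble shRNA, taking 3 counts per library as the floor, and these limits cover counting error only. Against that floor FLT1 was at least 5.11-fold higher, with the 16 and 14 counts taken as observed and their own counting error left out. No p-value is given for FLT1, since only the group in which it was high carried it through the filter. KDR (ENSG00000128052, chromosome 4, 55078259 to 55125595, minus strand), VEGF receptor 2, had 2 and 14 counts with scramble shRNA and 4 and 0 with IRF2BP2 shRNA. The KDR counts overlap between the groups, and 1 scramble library held most of them. TEK (ENSG00000120156, chromosome 9, 27109141 to 27230175, plus strand) had no count in 3 libraries and 4 counts in IRF2BP2 shRNA replicate 1. No difference in KDR or TEK was detectable at this depth.

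The other receptors and coreceptors that could be tested, NRP2, NRP1 and FLT4, were expressed at higher levels and did not move together. Of 7 further VEGF and Tie family genes, 5 were tested, 2 higher and 3 lower (100% called, beside 42.0% of all genes tested). Their median log2 fold change was -1.37. NRP2, a coreceptor for VEGFC and for semaphorins, was at 336 and 341 CPM with scramble shRNA and 113 and 115 CPM with IRF2BP2 shRNA (log2 fold change -1.57, SE 0.040, edgeR adjusted p = 3.34e-10). NRP1, a coreceptor for VEGFA, was at 20.2 and 17.8 CPM and then 34.2 and 37.1 CPM (0.91, SE 0.090, edgeR adjusted p = 1.02e-05). The 2 neuropilins thus changed in opposite directions, with no overlap of the groups in either. FLT4, the VEGFC receptor, was at 2.22 and 1.30 CPM and then 3.25 and 3.53 CPM (0.94, SE 0.29, edgeR adjusted p = 0.0222). FLT4 was chosen after its values were seen. Its call was lost without scramble replicate 2 (log2 fold change 0.61, edgeR adjusted p = 0.121), without IRF2BP2 shRNA replicate 2 (0.88, adjusted p = 0.0901) and with DESeq2 (0.95, adjusted p = 0.0587). PTPRB, the phosphatase that restrains TEK signalling, fell from 15.4 and 13.5 CPM to 5.16 and 4.37 CPM (-1.60, SE 0.15, edgeR adjusted p = 7.08e-06). VEGFD, a ligand of FLT4 and KDR, fell from 2.59 and 2.73 CPM to 1.09 and 0.968 CPM (-1.37, SE 0.29, edgeR adjusted p = 0.00259). TIE1 had 2 counts in 1 library and ANGPT4 had none.

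Markers of endothelial cells, the usual site of FLT1, are given beside it. Of 18 markers, 7 were tested and 3 of those, ENG, EMCN and SOX18, were higher and none lower. The share called was 42.9%, beside 42.0% of all genes tested. With no filter on low counts, 1 marker was called lower. The summed level of the 18 markers was 25.5 and 27.5 CPM with scramble shRNA and 104 and 109 CPM with IRF2BP2 shRNA. ENG, a coreceptor for TGF-beta ligands, made up 18.7 and 19.8 and then 77.2 and 82.3 CPM of that level. Of the defining markers, PECAM1 had no count in any library and CDH5 had 8 and 20 counts and then 0 and 2. VWF had 29 and 11 and then 37 and 26 counts, and CLDN5 56 and 41 and then 35 and 40, neither passing the test (edgeR adjusted p = 0.268 and 0.452). The 4 defining markers were at 1.61 CPM or less in every library. SOX18 was at 0.605 and 1.46 CPM and then 3.09 and 2.72 CPM (2.83-fold higher, edgeR adjusted p = 0.00887). The labels name only the neuroblastoma line as the source, and the part of endothelial cells in the FLT1 counts was not tested. Of 8 macrophage and leukocyte markers, 3 were tested and 1, PTPRC, was lower (log2 fold change -0.87, edgeR adjusted p = 0.0185). That is 33.3% called, beside 42.0% of all genes tested. The other tested markers, CD68 (0.20, edgeR adjusted p = 0.796) and CD14 (0.57, adjusted p = 0.302), were not called. CSF1R had 10 counts or fewer in every library and was not tested, and AIF1, LYZ and TYROBP had no count in any library. The PTPRC call was lost without scramble replicate 2 (log2 fold change -0.55) and without IRF2BP2 shRNA replicate 2 (-0.66).

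**Figure D4:**
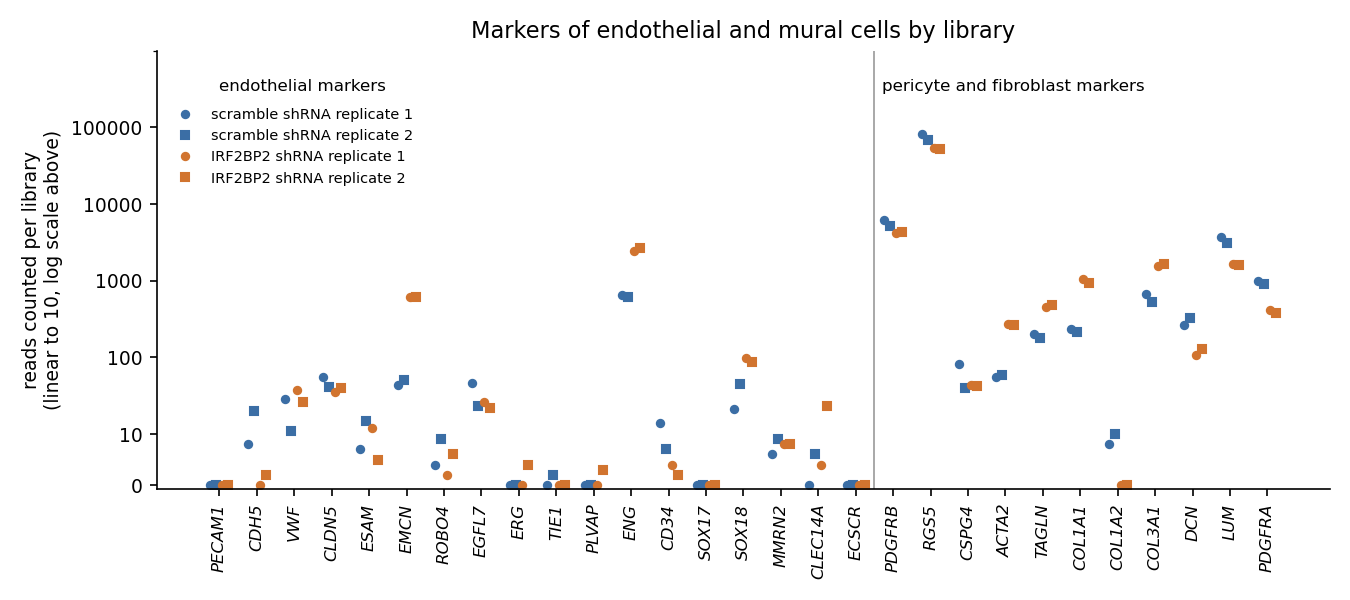
Reads counted per library (vertical axis, linear up to 10 and logarithmic above) for 18 endothelial markers and 11 pericyte and fibroblast markers, with circles for replicate 1, squares for replicate 2, blue for scramble and orange for IRF2BP2 shRNA. PECAM1 is at 0 in all 4 libraries while ENG and EMCN are higher in the orange ones, and RGS5 is far above every other marker in all libraries.

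ANGPT1 (ENSG00000154188, chromosome 8), the activating ligand of TEK, showed the largest change among the genes with counts in every library. It had 746 and 714 counts with scramble shRNA and 151 and 112 with IRF2BP2 shRNA, or 21.5 and 23.2 CPM against 4.72 and 3.496 CPM. Each IRF2BP2 shRNA library was well below each scramble library. ANGPT1 fell 5.44-fold (log2 fold change -2.44, SE 0.15, edgeR adjusted p = 2.46e-07), and it was called in all 12 alternative fits. ANGPT2 (ENSG00000091879, chromosome 8), the context-dependent antagonist, fell less, from 773 and 617 counts to 478 and 511, or from 22.3 and 20.1 CPM to 14.9 and 16.0 CPM. The groups did not overlap. ANGPT2 fell 1.37-fold (log2 fold change -0.46, SE 0.10, edgeR adjusted p = 0.00334), a change that was not called against 1.5-fold. Its exons share 78 bases with MCPH1 on the opposite strand, which had a mean of 752 counts beside 595 for ANGPT2, and no source used here says that reads were counted by strand.

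The unequal falls moved the balance of the angiopoietins. The ratio of ANGPT2 to ANGPT1 per kb of union exon length was 1.09 and 0.909 with scramble shRNA and 3.33 and 4.80 with IRF2BP2 shRNA. Its mean was 4.07 times as high (1.00 ± 0.13 against 4.07 ± 1.04). The length divides out of that change, though not out of the ratio, which was 0.518 and then 2.11 with the median coding transcript length. With ANGPTL4, a secreted relative of the angiopoietins that inhibits lipoprotein lipase, the direction was the reverse: it rose from 0.605 and 0.846 CPM to 8.06 and 5.99 CPM (log2 fold change 3.28, SE 0.27, edgeR adjusted p = 2.62e-06). ANGPTL2 was lower (-0.31, edgeR adjusted p = 0.0076), a call lost without IRF2BP2 shRNA replicate 1 (-0.24, adjusted p = 0.0682), and the other 6 of 8 angiopoietin-like genes did not reach the filter.

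Markers of pericytes and fibroblasts, which are usual sources of ANGPT1, moved with it in part. Of 11 markers, 10 were tested, 4 higher and 5 lower (90% called, beside 42.0% of all genes tested). The summed level of the 11 was 2685 and 2589 CPM with scramble shRNA and 2009 and 1958 CPM with IRF2BP2 shRNA, most of it RGS5. All 3 defining markers fell: RGS5 (log2 fold change -0.45, edgeR adjusted p = 9.28e-07), LUM (-1.03, adjusted p = 4.35e-08) and DCN (-1.31, adjusted p = 0.000323). The collagens COL1A1 (2.17, edgeR adjusted p = 4.83e-08) and COL3A1 (1.49, adjusted p = 1.23e-07) rose in the same libraries. So did the contractile genes ACTA2 (2.24, edgeR adjusted p = 4.22e-06) and TAGLN (1.34, adjusted p = 1.04e-05), named after their values were seen. The exons of TAGLN share 446 bases with PCSK7 on the opposite strand, which had a mean of 2372 counts beside 330 for TAGLN. Those of ACTA2, with a mean of 162 counts, share 380 bases with FAS (21.0) and 516 with ACTA2-AS1 (19.5), both on the opposite strand. The labels name only the neuroblastoma line as the source, with no pericytes or fibroblasts. In bulk RNA, fewer cells of a type and less RNA per cell cannot be told apart. The part of these markers in the fall of ANGPT1 was not tested. Over the same comparison 8 of 10 neuroblastoma markers were lower and 1 higher (90% called, beside 42.0% of all genes tested).

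THBS1 (ENSG00000137801, chromosome 15, 39581079 to 39599466, plus strand) was counted 238 and 169 times with scramble shRNA and 332 and 314 times with IRF2BP2 shRNA, or 6.85 and 5.499 CPM against 10.4 and 9.80 CPM. The groups did not overlap, and the scramble libraries differed from each other more than the IRF2BP2 shRNA libraries did. THBS1 rose 1.63-fold (log2 fold change 0.71, SE 0.16, edgeR adjusted p = 0.00424), so that an inhibitor and VEGFA were higher in the same libraries. The ratio of VEGFA to THBS1 per kb of union exon length was 3.84 and 4.76 with scramble shRNA. It was 4.38 and 4.74 with IRF2BP2 shRNA, and these ranges overlap. With the median coding transcript length the mean ratio was 25.8 and then 27.3. The exons of THBS1 share 448 bases with FSIP1 on the opposite strand, which had a mean of 9.8 counts. Against a change of 1.5-fold THBS1 was not called (edgeR glmTreat adjusted p = 0.527).

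The thrombospondin family and its receptors showed no common direction. Of 12 further genes, 10 were tested, 4 higher and 3 lower (70% called, beside 42.0% of all genes tested). Their median log2 fold change was -0.24. CD47, the receptor through which THBS1 blocks nitric oxide signalling, fell from 126 and 126 CPM to 79.1 and 77.5 CPM (-0.68, SE 0.040, edgeR adjusted p = 1.72e-07). LRP1 (-0.61, edgeR adjusted p = 4.63e-05) and the integrin subunit ITGA3 (-1.32, adjusted p = 0.000368) were lower, and CALR, which pairs with LRP1 in thrombospondin binding, was higher (0.52, adjusted p = 3.12e-06). CD36, the other classical THBS1 receptor, had 3 counts or fewer in every library. THBS2, the closest relative of THBS1, missed the threshold (-0.10, edgeR adjusted p = 0.787).

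Secreted VEGF ligands are cut and bound outside the cell. Of 14 tested proteases and matrix proteins that act on them, 11 were called, 8 higher and 3 lower. That is 78.6%, beside 42.0% of all genes tested, and the median log2 fold change was 0.41. MMP2, a gelatinase that frees matrix-bound VEGFA, rose from 602 and 589 CPM to 1013 and 991 CPM (0.75, SE 0.035, edgeR adjusted p = 2.88e-08). ADAMTS1, which binds VEGFA and cleaves thrombospondins, rose from 24.7 and 22.4 CPM to 67.9 and 65.3 CPM (1.498, SE 0.074, edgeR adjusted p = 4.22e-08). PLAT, an activator of plasminogen, rose (1.40, edgeR adjusted p = 4.31e-07). Among genes that mature VEGFC, FURIN, which cuts the VEGFC precursor, rose from 23.4 and 28.2 CPM to 57.9 and 53.3 CPM (1.11, edgeR adjusted p = 5.17e-06), and ADAMTS3, the protease that activates VEGFC, was higher (0.43, adjusted p = 2.41e-05). CCBE1, the cofactor that ADAMTS3 needs for this step, had 18 and 26 counts with scramble shRNA and none with IRF2BP2 shRNA. With the scramble counts taken as observed, CCBE1 was at least 7.26-fold lower against a floor of 3 counts per library. CCBE1 passed the filter only through the scramble group, so it had to differ and its call is a description. ADAMTS3 and CCBE1 were chosen after their values were seen.

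Genes that act on VEGFA transcription moved in both directions: of 25 tested, 12 were higher, 3 lower and 10 not called. The share called was 60%, beside 42.0% of all genes tested. The median log2 fold change was 0.23. EGR1, an immediate early factor, rose from 22.9 and 20.0 CPM to 86.8 and 86.2 CPM (2.01, SE 0.074, edgeR adjusted p = 4.47e-09). HIF1A, the oxygen-regulated subunit of the factor that induces VEGFA in hypoxia, rose from 275 and 271 CPM to 476 and 467 CPM (0.79, SE 0.038, edgeR adjusted p = 3.52e-08). EGLN3, a prolyl hydroxylase that marks HIF proteins for decay, rose from 17.1 and 18.2 CPM to 38.04 and 36.1 CPM (1.07, edgeR adjusted p = 1.34e-06). EPAS1, which encodes the HIF-2 alpha subunit, is named after its values were seen: it fell from 4.72 and 5.53 CPM to 1.94 and 1.90 CPM (-1.41, edgeR adjusted p = 0.000358). VGLL4, the IRF2BP2 partner, was higher (0.49, edgeR adjusted p = 1.76e-06), although its exons share 1596 bases with ATG7 on the opposite strand. TEAD1, also chosen after its values were seen, was lower (-0.36, edgeR adjusted p = 2.22e-05).

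Of 11 regulators of VEGFA mRNA, 6 were higher and 1 lower (63.6% called, beside 42.0% of all genes tested), and the median log2 fold change was 0.16. ZFP36L2, an RNA-binding protein that promotes decay of AU-rich messages, had the smallest p of them (0.63, SE 0.046, edgeR adjusted p = 8.65e-07). ELAVL1, which stabilises such messages, was 1.16-fold higher (edgeR adjusted p = 0.000842), and KHSRP, which destabilises them, 1.18-fold higher (adjusted p = 0.000865). PTBP1, which binds pyrimidine-rich RNA, was 1.12-fold higher (edgeR adjusted p = 0.00263).

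Of the signalling proteins downstream of VEGF receptors, 31 were tested, of which 13 were higher, 4 lower and 14 not called. The median log2 fold change was 0.11. The share called, 54.8%, stands beside 42.0% of all genes tested. PIK3R1, a regulatory subunit of PI3-kinase, rose from 90.7 and 84.7 CPM to 172 and 179 CPM (1.00, SE 0.044, edgeR adjusted p = 1.88e-08). PXN, a focal adhesion adaptor, rose from 58.8 and 62.1 CPM to 117 and 114 CPM (0.94, SE 0.046, edgeR adjusted p = 4.35e-08), and the kinase MAPKAPK2 from 56.1 and 52.3 CPM to 101 and 106 CPM (0.93, SE 0.053, adjusted p = 1.38e-07). FYN, a SRC family kinase, fell from 187 and 195 CPM to 126 and 123 CPM (-0.62, SE 0.040, edgeR adjusted p = 3.61e-07).

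**Figure D5:**
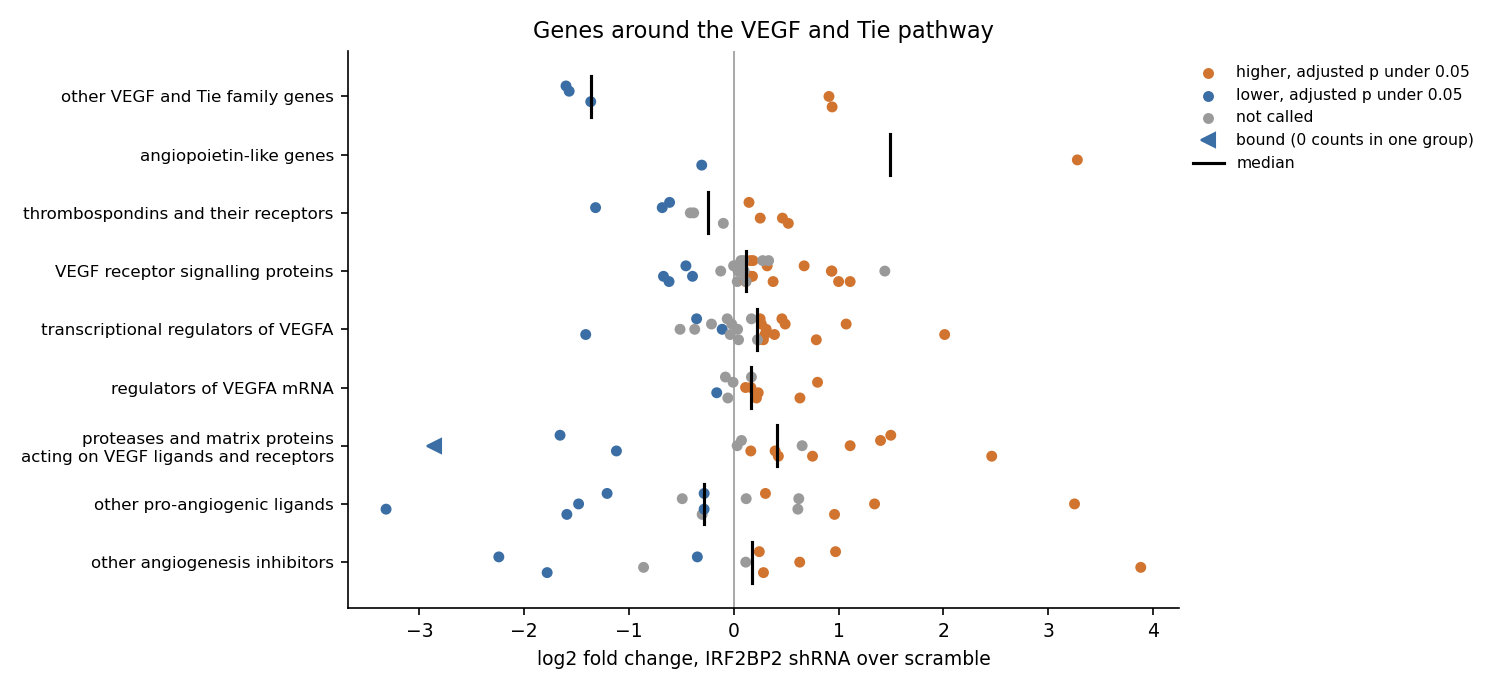
Log2 fold change of IRF2BP2 shRNA over scramble (horizontal axis) for each tested gene of 9 lists around the VEGF and Tie pathway (rows), with orange points higher and blue points lower at an adjusted p under 0.05, grey points not called, a triangle for the bound of CCBE1 and a black bar at each list's median. Every list holds genes on both sides of 0, and the medians lie between -1.37 and 1.49.

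The genes whose 4 values were most like those of VEGFA and ANGPT1 were sought among 10677 protein-coding genes with a mean of at least 5 CPM, by the Euclidean distance of log2 CPM centred on each gene's mean over the 4 libraries. Nearest to VEGFA was SZRD1 at a distance of 0.010, with 183 and 183 CPM with scramble shRNA and 320 and 326 CPM with IRF2BP2 shRNA. NCLN and CRABP1 followed, each at 0.031. Nearest to ANGPT1 were PEX5L at 0.204, with 35.2 and 33.5 CPM and then 7.06 and 6.06 CPM, SLIT1 at 0.206 and FBP1 at 0.21. The nearest genes to ANGPT1 were thus farther from it than those to VEGFA. With 4 libraries in 2 groups, this likeness mostly reads the size of the group difference.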

How the data were processed

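RNA was measured in 4 libraries, 2 per group. Per the labels' protocols, TRIzol total RNA went into Illumina TruSeq RNA libraries. The authors deposited unnormalized gene counts, a column for each library. The submitters' processing notes name HISAT2 2.2.0 and hg38. What counted the reads, and on which annotation, is not given in the sources used here. Control columns carry the abbreviation NC and were taken as the scramble libraries, since the other columns are named for IRF2BP2; numbers in column names and titles were matched. Replicates differed by more than sampling noise (chi-square per degree of freedom 7.01 and 5.26).

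Of 64252 rows, 28934 had no count. A symbol was found for 40995 identifiers. Lengths and positions came from GENCODE 29 (GRCh38). In R 4.3.3, edgeR 4.0.16 filtered genes by group (filterByExpr), applied TMM scaling (trimmed mean of M values), and tested two-sided with the robust quasi-likelihood F-test over all 4 libraries. P-values were adjusted over 19093 genes by the Benjamini-Hochberg method at 0.05. The biological coefficient of variation was 9.52%. The SE is the absolute log2 fold change over the square root of F. The procedure was tested on simulated data in which far fewer genes changed than were called here. Alternatives were DESeq2 1.42.0, limma 3.58.1 voom, upper quartile and RLE scaling, no filter, a mean of at least 10 CPM, glmTreat against 1.5-fold, a replicate block, leaving out each library and, chosen after seeing the data, another gene length.

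The genes and lists (13, with 192 distinct genes) were chosen with earlier results of these data known. Named were all 10 genes, IRF2BP2, up to 4 called genes of each list with the smallest p, defining cell markers, and the 3 nearest patterns of VEGFA and of ANGPT1. Others are marked, except genes given only for an exon overlap and TIE1, ANGPT4, CD36, THBS2, CD14, AIF1, LYZ and TYROBP. Those named exceptions were not tested or not called. Some genes this rule took are not reported here.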

Additional observations from a re-analysis of the deposited data

How the results depend on the processing

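No tested result reversed. The summed VEGF ligand level, IRF2BP2 shRNA over scramble, did: it was 0.922 per kb of union exon length, 1.26 per kb of median coding transcript length and 1.30 with counts not divided by length. VEGFA and ANGPT1 were called in 12 of 12 alternatives and VEGFC in 11 of 11 that gave a value. FLT1 was not tested without IRF2BP2 shRNA replicate 1 or under the 10 CPM filter. In the other alternatives FLT1 is among the genes counted as higher below. In the main fit it passed the filter only through the group in which it was high, so these counts are a description. The 8016 genes called became 6438 with DESeq2, 7930 with upper quartile scaling, 8037 with RLE scaling, 7260 with no filter, 6134 with a mean of at least 10 CPM and 7760 with voom. Against 1.5-fold (glmTreat) 1619 genes were called (545 higher, 1074 lower), 8.48% of those tested. Of the 8 genes tested out of the 10, 3 were higher (VEGFA, VEGFC and FLT1) and 1 lower (ANGPT1). Of the list genes, 25 were higher and 23 lower. Under the filter at a mean of 10 CPM, 5 of the 10 genes were tested, and 2 were called higher and 3 lower, beside 6134 of 10383 genes. Leaving out each library in turn gave 6412 to 7477 genes, 4 to 5 of the 10 genes higher and 3 lower each time, and 52 to 61 list genes higher and 36 to 41 lower. The labels do not say whether libraries of the same number were prepared together. Deviations of same-numbered libraries correlated at 0.0604, which cannot settle it with 2 libraries per group. With the number as a block, 7902 genes were called, 5 and 3 of the 10 genes, and 63 and 41 list genes. With the median coding transcript length the ANGPT2 to ANGPT1 ratio was 0.518 and then 2.11, and the VEGFA share 43.9% and then 61.0%; with counts not divided by length, the share was 42.6% and then 57.6%. With that transcript length the order was VEGFA 1, VEGFB 2, ANGPT1 3, PGF 4, ANGPT2 5, THBS1 6 and VEGFC 7 in scramble, and VEGFA 1, VEGFB 2, ANGPT2 4, VEGFC 5, ANGPT1 6 and THBS1 7 with IRF2BP2 shRNA. Depth limits FLT1, KDR and TEK, which had 16 counts or fewer in every library.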

Other observations

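Other angiogenic factors that neuroblastoma cells can secrete moved in both directions. Of 15 tested pro-angiogenic ligands outside the VEGF and angiopoietin families, 4 were higher and 6 lower. That is 66.7% called, beside 42.0% of all genes tested, and the median log2 fold change was -0.28. ADM, the vasodilator peptide adrenomedullin, was at 27.0 and 31.7 CPM with scramble shRNA and 2.69 and 3.18 CPM with IRF2BP2 shRNA (log2 fold change -3.32, SE 0.14, edgeR adjusted p = 1.15e-08). IGF2, a growth factor of fetal tissue, fell from 47.6 and 57.6 CPM to 16.7 and 18.1 CPM (-1.59, SE 0.10, edgeR adjusted p = 4.98e-07). PTN, a heparin-binding growth factor, rose from 154 and 148 CPM to 294 and 295 CPM (0.96, SE 0.040, edgeR adjusted p = 1.31e-08). HGF, the ligand of the MET receptor, rose from 20.0 and 17.3 CPM to 46.7 and 48.2 CPM (1.34, SE 0.087, edgeR adjusted p = 3.50e-07).

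Of 10 tested inhibitors of angiogenesis other than THBS1, 5 were higher and 3 lower. That is 80% called, beside 42.0% of all genes tested, and the median log2 fold change was 0.18. Only 3 were higher with DESeq2, with upper quartile scaling, and when replicate 2 of either group was left out. SERPINF1, which encodes the inhibitor PEDF, fell from 122 and 128 CPM to 35.8 and 36.7 CPM (log2 fold change -1.78, SE 0.050, edgeR adjusted p = 6.62e-10). SEMA3F, a semaphorin that binds NRP2, fell from 30.8 and 30.1 CPM to 6.16 and 6.71 CPM (-2.24, SE 0.10, edgeR adjusted p = 2.32e-08), in the same libraries in which NRP2 itself was lower. SPARC, a matrix protein that binds VEGFA, rose from 151 and 149 CPM to 289 and 300.1 CPM (0.97, SE 0.041, edgeR adjusted p = 1.25e-08).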
